A study of Mus musculus with 15 samples.

Results

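CD24- preadipocytes were compared with CD24+ progenitors, both sorted from the subcutaneous adipose tissue of mouse pups that had received milk with a high n6/n3 ratio. The comparison rests on 7 of the 15 bulk RNA-seq libraries of the series: preadipocyte libraries 1015, 1017 and 1019 and progenitor libraries 1015, 1017, 1018 and 1019. The members were chosen by the population and milk that the labels give. All pups were wildtype C57Bl/6 mice that had been cross-fostered, so every group carries the same genotype, and the groups differ in the sorted population and in the milk, whose polyunsaturated fatty acids (PUFA) of the n6 and n3 families stood in a high or a low ratio. One protocol in the labels gives the exposure as 12 days and another gives 10 days. The same 2 populations on low n6/n3 milk, with 4 libraries each (108, 114, 119 and 133), served as further samples. The labels name no gate other than CD24, and they do not say how many pups went into a library. P-values therefore measure the spread between these libraries, part of which may be technical.

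White fat cells arise from stromal precursors that first proliferate and then commit to the adipocyte fate. In subcutaneous fat, CD24+ precursors are regarded as the earlier cells, and they lose CD24 on the way to preadipocytes, which switch on the first genes of fatty acid uptake and lipid storage. CCAAT/enhancer-binding proteins and the nuclear receptor PPARγ drive this step, while Wnt and TGF-β signals are known to hold precursors back.

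The data of each population came as a table of its own, normalized apart from the other, in log2-like values from a variance stabilizing transformation. For the comparison they were turned back into linear values, set to parts in 1000000 of each library (ppm) over the 21792 genes listed in both tables by Ensembl ID, and scaled to a common median ratio. Levels below are these rescaled values in ppm. They are not divided by transcript length, so levels of different genes are not compared. Each population is also one table, so a difference between populations and one between tables cannot be told apart. The ranks of genes within a library, which no scaling of libraries alters, are given as a second scale.

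Estimated depth, read from the smallest steps in the values, was 13.8, 68.7 and 22.8 M reads in preadipocyte libraries 1015, 1017 and 1019 (M, mega), against 40.5 to 59.3 M reads in the 4 progenitor libraries. The shallowest libraries were thus both preadipocyte libraries, and genes of few reads are least certain there. Across genes, libraries of the same population and milk correlated at Pearson coefficients from 0.954 to 0.978, and pairs across groups at 0.931 to 0.961. No pair of libraries shared more than 0.187% of its values exactly, so none was a copy of another. Each was counted as a sample, though this check cannot tell whether libraries came from different pups.

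The gene used for the sort followed its labels. Cd24a (chr10, GRCm38, chr10:43578284-43584265), which encodes the surface protein CD24, had 17.9, 21.2 and 16.6 ppm in preadipocytes, against 45.4, 48.3, 66.3 and 65 ppm in progenitors. All 3 preadipocyte libraries lay below all 4 progenitor libraries, and the levels of the groups differed 3.02-fold. The log2 difference, preadipocytes minus progenitors, was -1.56 ± 0.17 (SE; limma adjusted p = 0.00137). Within a library, Cd24a stood at percentiles 58.9, 64.3 and 59 in preadipocytes, against 81.4, 82.5, 87.4 and 86.9 in progenitors. The sort chose the cells by this protein, so the difference describes the sort. Preadipocytes kept a measurable Cd24a level.

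Markers of precursor identity stood high in both populations. Cd34, a surface protein of stromal precursors, averaged 1531 ± 77 ppm in preadipocytes, against 1630.1 ± 70.5 ppm in progenitors (SD, n = 3 and 4, as for all means below), and Pdgfra, the platelet-derived growth factor receptor of mesenchymal cells, averaged 371 ± 37.2 ppm in preadipocytes, against 407 ± 32.3 ppm in progenitors. Neither passed the threshold (log2 differences of -0.09 and -0.13, limma adjusted p = 0.406 and 0.366). The markers were not all level, since 4 of the 9 genes of this list rose and 1 fell, against 14.3% and 6.48% of all genes tested. Ly6a, Itgb1 and Lum were among the risen (0.68, 0.42 and 1.15), and Col1a1 fell (-1.03). Of 13 marker lists for other cell types, the endothelial, macrophage, B cell, T and NK cell, neutrophil and mast cell, erythroid, epithelial, mesothelial and neuronal lists held no gene past the adjusted threshold of limma among 45 tested, 7 at an unadjusted p under 0.05 and 2 past it in the ranks. The shares over all genes tested were 20.7%, 34.8% and 20.5%, in the same order. Some members, namely Krt14, Krt8, Krt15 and Cldn4 of epithelium, Upk3b, Lrrn4, Muc16 and Upk1b of mesothelium, Elavl4, Snap25 and Syt1 of neurons, and Myf5 and Myh3 of muscle, were at 0 or not listed in both tables. Other members were measured. Krt19, in the epithelial and mesothelial lists, averaged 9.86 ppm over the 7 libraries, and Uchl1 of the neuronal list 51.2 ppm. The epithelial sum was 14.9 to 18.3 ppm in preadipocytes, against 12.5 to 17.1 ppm in progenitors. The mesothelial sum was 9.98 to 12.9 ppm in preadipocytes, against 7.73 to 11.2 ppm in progenitors. The neuronal sum was 44.2 to 58.3 ppm in preadipocytes, against 56.8 to 70.9 ppm in progenitors. Summed over its list, the endothelial level was 228 to 304 ppm in preadipocytes, against 261 to 357 ppm in progenitors, with Tek as its highest gene. The macrophage sum was 24.5 to 31.8 ppm in preadipocytes, against 24.1 to 29.7 ppm in progenitors. The erythroid sum was 57.6 to 227 ppm in preadipocytes, against 144 to 731 ppm in progenitors, and 5 of its 6 tested genes had lower values in preadipocytes. The pericyte and smooth muscle sum was 256 to 296 ppm in preadipocytes, against 327 to 348 ppm in progenitors: Abcc9, Des and Mylk fell, and Notch3 rose. In the Schwann cell list S100b rose, and in the muscle list Vcam1 rose and Acta1 and Des fell. The mature adipocyte sum was low in both, 20.3 to 26.5 ppm in preadipocytes, against 9.10 to 13.3 ppm in progenitors, and Car3 rose. The part of these cells in the results below was not tested. In bulk libraries, fewer cells of a type and less RNA per cell cannot be told apart.

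Of 14470 genes with a mean of at least 0.5 ppm over the 7 libraries, 3001 (20.7%) passed an adjusted p of 0.05 in limma. Of these, 2064 (14.3% of the genes tested) were higher in preadipocytes and 937 (6.48%) were lower, and 1038 differed by at least 1 on the log2 scale, 944 of them higher. Counts of list members below are to be read beside the 14.3% and 6.48% of all genes tested. The groups did not overlap for 4832 genes (33.4%), 3087 (21.3%) of them higher and 1745 (12.1%) lower. The median difference of all genes tested was 0.07. On the scale of ranks, 2964 genes (20.5%) passed, 1546 higher (10.7%) and 1418 lower (9.8%). The balance of directions thus depended on the scale: 68.8% of calls were higher in the rescaled values, 78.1% without the median ratio step, 58.2% with upper quartile scaling and 52.2% in the ranks. The genes themselves were mostly shared, since 2476 of the 3001 were called in the same direction in the ranks and 3 had the opposite sign there.

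The promoters of 4 genes that differed between the populations, a pair that rose in preadipocytes (Cebpa and Cd36) and a pair that fell (Cilp and Col1a2), are shown as the DNA before an annotated start of each. Each line holds the 250 bases before the start that the RefSeq table gives, build GRCm38.p6, in the direction of transcription. Cebpa lies at chr7:35119043-35119292 on the plus strand, Cd36 at chr5:17835897-17836146 on the minus strand, Cilp at chr9:65264930-65265179 on the plus strand and Col1a2 at chr6:4505368-4505617 on the plus strand. The windows of Cd36 and Col1a2 lie inside the bounds of these genes in the GENCODE annotation, which reach further upstream, and which start these cells used was not measured. Capitals mark TATANAA and CCAAT, searched on both strands, which do not overlap each other here.
Cebpa: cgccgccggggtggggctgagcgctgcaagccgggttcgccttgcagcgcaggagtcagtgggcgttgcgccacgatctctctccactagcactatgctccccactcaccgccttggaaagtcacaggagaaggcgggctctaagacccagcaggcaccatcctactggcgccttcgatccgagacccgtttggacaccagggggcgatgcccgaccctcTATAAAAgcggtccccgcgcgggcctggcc
Cd36: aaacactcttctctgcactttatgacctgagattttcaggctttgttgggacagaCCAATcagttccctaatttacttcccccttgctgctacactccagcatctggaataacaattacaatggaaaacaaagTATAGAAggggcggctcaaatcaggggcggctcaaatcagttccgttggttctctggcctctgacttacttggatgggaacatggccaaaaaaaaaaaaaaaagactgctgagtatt
Cilp: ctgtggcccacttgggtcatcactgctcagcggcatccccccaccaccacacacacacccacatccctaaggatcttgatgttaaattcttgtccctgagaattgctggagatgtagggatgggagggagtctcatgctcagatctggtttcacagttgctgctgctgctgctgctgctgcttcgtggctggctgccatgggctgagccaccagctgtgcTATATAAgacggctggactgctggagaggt
Col1a2: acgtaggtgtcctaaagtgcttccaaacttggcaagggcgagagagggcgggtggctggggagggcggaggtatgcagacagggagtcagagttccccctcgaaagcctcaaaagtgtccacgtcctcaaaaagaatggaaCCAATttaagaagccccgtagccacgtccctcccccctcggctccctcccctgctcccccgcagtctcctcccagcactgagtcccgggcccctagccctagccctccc
TATANAA stood 30 to 24 bases before the start in Cebpa, which rose, and also in Cilp, which fell. In Cd36 it stood 117 to 111 bases before the start. CCAAT stood 195 to 191 bases before the start of Cd36 and 109 to 105 bases before that of Col1a2. Among 32851 RefSeq promoters of the same length, 10.4% held TATANAA and 33.9% held CCAAT. The letters describe these windows, and binding was not measured.

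Of 18 tested adipocyte and lipid droplet genes, 6 rose in preadipocytes and none fell at the adjusted threshold of limma, with a median log2 difference of 0.48 against 0.07 over all genes. Another 6 of the 24 listed in both tables were too low to be tested. Fabp4 (chr3:10204088-10208576), the cytosolic fatty acid carrier of adipocytes, had 309.5, 289 and 194 ppm in preadipocytes, against 83.2, 76.3, 68.5 and 89 ppm in progenitors. Cd36 (chr5:17781690-17888801), which takes up long-chain fatty acids at the cell surface, had 247, 218 and 184 ppm in preadipocytes, against 75.9, 53.9, 55.1 and 69.3 ppm in progenitors. Every preadipocyte library exceeded every progenitor library by more than 2-fold in both genes, and library 1019 was the lowest preadipocyte library in each. The log2 differences were 1.71 ± 0.17 for Fabp4 (adjusted p = 0.00123) and 1.76 ± 0.15 for Cd36 (adjusted p = 0.00123).

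G0s2, an inhibitor of the triglyceride lipase ATGL, had 31.2, 24.9 and 15.8 ppm in preadipocytes, against 6.12, 5.13, 5.41 and 6.64 ppm in progenitors, with no overlap and a log2 difference of 1.9 ± 0.23 (limma adjusted p = 0.00182). Lpl, the lipoprotein lipase that frees fatty acids from circulating triglyceride, had 960.5, 793 and 924 ppm in preadipocytes, against 593, 538, 507 and 618 ppm in progenitors. Its difference was smaller, 0.66 ± 0.10 (adjusted p = 0.00317), and again without overlap. Car3, a carbonic anhydrase abundant in fat cells, and Plin4, a lipid droplet coat protein, rose by 1.0 and 0.78.

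Among 18 adipogenic transcription factors, Cebpa, Cebpb and Cebpd rose and Stat5b fell, while the list's median was -0.04 and changed sign with the scaling. These counts were near the shares of all genes tested, 14.3% higher and 6.48% lower. Cebpa (chr7:35119293-35121928), which encodes the CCAAT/enhancer-binding protein that maintains the adipocyte programme, had 38.9, 31 and 30.1 ppm in preadipocytes, against 18.6, 14.5, 16.1 and 13.5 ppm in progenitors. It was 2.13-fold higher in preadipocytes without overlap (log2 difference 1.07 ± 0.15, limma adjusted p = 0.00269). Cebpb and Cebpd, the early-acting members of the same family, differed by 0.56 ± 0.14 and 0.55 ± 0.15 (adjusted p = 0.0225 and 0.0345). Pparg, the nuclear receptor at the centre of adipogenesis, had 24, 18.4 and 14.4 ppm in preadipocytes, against 11.8, 9.09, 4.67 and 14.7 ppm in progenitors. The groups overlapped at preadipocyte library 1019 and progenitor library 1019, and the difference of 0.96 ± 0.35 did not pass (adjusted p = 0.0903). Stat5b differed by -0.37, and with the trend over GC content and transcript length removed its sign turned (0.06). Of 15 genes known to hold back adipogenesis, Zfp521, Foxo1 and Klf3 fell and Ddit3 rose. Zfp521, a zinc finger protein that opposes commitment to fat, averaged 77.4 ± 8.52 ppm in preadipocytes, against 116 ± 3.4 ppm in progenitors (log2 difference -0.59 ± 0.09, adjusted p = 0.00381). Without the GC and length trend, Foxo1 no longer passed (-0.14, adjusted p = 0.459).

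The list of committed preadipocyte genes, drawn from published single-cell descriptions of fat stroma, held 9 risen and 3 fallen genes of 17, with a median of 0.69. Fabp4, Cd36 and Lpl belong to it too. Apoe, the lipid-carrying apolipoprotein E, had 299.6, 259 and 216 ppm in preadipocytes, against 93, 81, 67.4 and 87 ppm in progenitors. Icam1, an adhesion molecule used to mark committed preadipocytes, had 136, 151 and 146 ppm in preadipocytes, against 66.8, 75.5, 62.2 and 94 ppm in progenitors. Both separated the groups without overlap, with log2 differences of 1.64 ± 0.14 (limma adjusted p = 0.00123) and 0.97 ± 0.14 (adjusted p = 0.00278). Ggt5, Sparcl1, Vcam1 and Col4a1 rose by 1.0, 0.81, 0.74 and 0.64. The 3 fallen members were Cxcl14, Mgp and Gpx3, at -1.02, -0.67 and -0.73. The members thus did not all move one way.

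**Figure D1:**
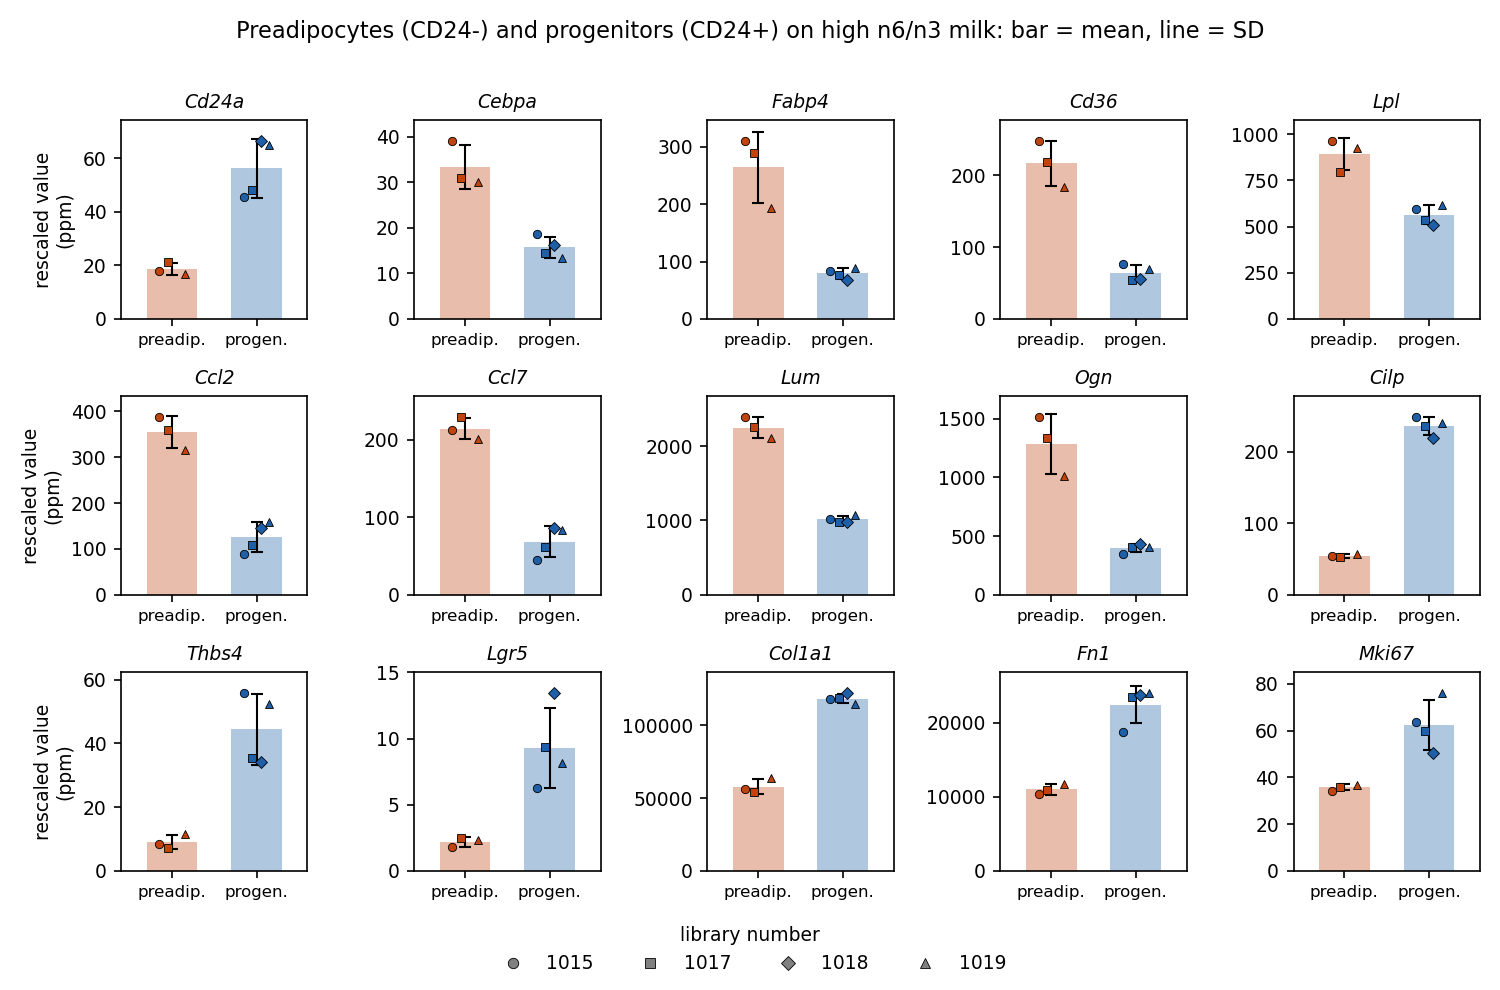
Rescaled values in ppm (vertical axes, from 0) of 15 genes in the 3 preadipocyte libraries (left in each panel) and the 4 progenitor libraries (right) on high n6/n3 milk; points are libraries, bars are means and lines are SDs. Fabp4 lies at 194 to 310 ppm in preadipocytes, against 68.5 to 89.0 ppm in progenitors, and Cilp at 52.2 to 57.5 ppm in preadipocytes, against 219 to 248 ppm in progenitors.

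Genes of the interstitial progenitor, the DPP4+ PI16+ cell described in the connective tissue around fat, tended to the opposite side. Of 17 tested, 6 fell and 1 rose, with a median of -0.34. Pi16, a peptidase inhibitor that marks these cells, had 1346, 1755 and 1456 ppm in preadipocytes, against 2062, 2407, 2542 and 2099.9 ppm in progenitors, and Wnt2, a secreted Wnt ligand, had 71, 80.8 and 68.8 ppm in preadipocytes, against 104, 111, 135 and 112 ppm in progenitors. Neither overlapped, and the differences were -0.59 ± 0.12 (limma adjusted p = 0.00875) and -0.65 ± 0.11 (adjusted p = 0.00486). Bmp7, Efhd1, Cd248 and Pcsk6 fell by 0.75, 0.52, 0.46 and 0.39 on the log2 scale. Dpp4, which lends the cells their name, overlapped between the groups, at 425 ± 96.3 ppm in preadipocytes, against 530.1 ± 71.8 ppm in progenitors (log2 difference -0.34, adjusted p = 0.191). Mfap5, a microfibril protein of the same list, rose by 0.36. With the GC and length trend removed, 4 members fell and 1 rose, and Pi16 missed the threshold (adjusted p = 0.0866).

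Secreted regulators of Wnt and TGF-β signalling were lower in preadipocytes where they passed. Of 28 Wnt pathway genes, 7 fell and none rose (median -0.20): the antagonists Sfrp4, Sfrp2 and Dkk3, the ligands Wnt2, Wnt9a and Wnt10b, and the receptor Fzd7. Sfrp4 had 338, 379.8 and 325 ppm in preadipocytes, against 512, 567, 684 and 586 ppm in progenitors (log2 difference -0.75 ± 0.11, limma adjusted p = 0.00278). The list depended on base composition: with the GC and length trend removed 3 rose, 3 fell, and the median was 0.02. Of 36 TGF-β and BMP genes, 11 fell and 2 rose (median -0.25). Bmp3, a BMP ligand that antagonises other BMPs, had 70.2, 88.9 and 86 ppm in preadipocytes, against 129.9, 158, 141 and 145 ppm in progenitors. Tgfbr3, the co-receptor betaglycan, had 197, 198 and 216 ppm in preadipocytes, against 321, 337, 322 and 329.7 ppm in progenitors. Both groups were separate in both genes, with differences of -0.81 ± 0.11 and -0.68 ± 0.07 (adjusted p = 0.00229 and 0.00129). Tgfbr2, the signalling receptor, and Tgfb2, a ligand, fell by 0.60 and 0.76, while the receptor Acvr2a and the target Id1 rose by 0.83 and 0.73. Without the trend, 7 fell and 3 rose, and the difference of Tgfbr2 was -0.14 (adjusted p = 0.323). Of 23 Hedgehog and Notch genes, Rbpj, Notch2, Boc and Cdon fell and Notch3, also a pericyte gene, rose, and with the GC and length trend removed 1 fell and 2 rose. Of 22 Hox and positional genes, none passed the adjusted threshold of limma, 7 had an unadjusted p under 0.05 (5 higher and 2 lower), and 1 passed as lower in the ranks. The shares over all genes tested were 20.7%, 34.8% and 9.8%, in the same order.

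The matrix differed gene by gene. Collagens made up 21.1 ± 2.13% of all values in preadipocytes, against 30.6 ± 0.287% in progenitors (SD; exact permutation p = 0.0571, two-sided, the smallest that 3 against 4 libraries allow). Of 14 fibrillar and associated collagens, 6 fell and none rose (median -0.31), and with the GC and length trend removed 3 fell and 2 rose (median -0.12). Col1a1 (chr11:94936224-94953042), the main chain of type I collagen, had 56157, 53906 and 63815 ppm in preadipocytes, against 117959, 118778, 122013 and 114808 ppm in progenitors. It was 2.04-fold lower in preadipocytes (log2 difference -1.03 ± 0.07, limma adjusted p = 0.00111). Col1a2, its partner chain, averaged 35214 ± 3698 ppm in preadipocytes, against 61081 ± 2054 ppm in progenitors, a difference of -0.80 ± 0.08 (adjusted p = 0.00123). Col1a2 held the same rank in every library, near the top of the list, so its rank difference was nil. Col5a1, Col14a1 and Col6a6 fell by 0.58, 0.61 and 0.48, and without the GC and length trend their differences were -0.17, -0.17 and -0.00, none past the threshold. Col3a1 fell by 0.20.

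Of 19 matricellular and adhesive glycoproteins, 8 fell and 2 rose (median -0.59). Fn1, fibronectin, had 10409, 10866 and 11798 ppm in preadipocytes, against 18759.7, 23435, 23714 and 23968 ppm in progenitors, and Eln, elastin, had 3055, 3179 and 2735 ppm in preadipocytes, against 5823, 5785, 8580.0 and 5333 ppm in progenitors. The log2 differences were -1.02 ± 0.10 (limma adjusted p = 0.00123) and -1.07 ± 0.16 (adjusted p = 0.00281), with no overlap. Fibrillins Fbn1 and Fbn2, fibulin Fbln1, tenascins Tnxb and Tnc and Mfap4 made up the rest of the fallen members. Postn, periostin, rose to 19221, 16618 and 14719 ppm in preadipocytes, against 8570.2, 8007, 8619 and 8833 ppm in progenitors (difference 0.98 ± 0.09, adjusted p = 0.00123). With the GC and length trend removed, 5 members fell and 2 rose.

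Small leucine-rich proteoglycans, which coat collagen fibrils and set their width, split into opposite groups: 5 of 10 rose and 2 fell. Aspn (asporin), Ogn (osteoglycin) and Omd (osteomodulin), which are neighbours in the genome on chromosome 13, rose by 1.7, 1.67 and 1.58. With the GC and length trend removed, their differences were 1.07, 1.13 and 0.93, all past the threshold. Of the list, 4 then rose and 1 fell. Aspn had 3312, 2585 and 1962 ppm in preadipocytes, against 778, 793, 776 and 802 ppm in progenitors, and Ogn had 1509, 1335 and 1008 ppm in preadipocytes, against 350.4, 409, 433 and 404 ppm in progenitors. Lum, lumican, had 2385, 2257 and 2103 ppm in preadipocytes, against 1019.7, 976, 983 and 1075 ppm in progenitors (difference 1.15 ± 0.07, limma adjusted p = 0.00111). Preadipocytes lay above progenitors in each library for these genes, and preadipocyte library 1019 was the lowest of its group in all 3. Prelp and Fmod, 2 members of the same family, fell, at -0.68 and -1.19, the groups overlapping for Fmod. Of 16 basement membrane genes, 5 fell, Lamb2, Sparc, Nid1, Hspg2 and Lamc1, and Col4a1 rose. Hspg2, perlecan, averaged 2295 ± 128 ppm in preadipocytes, against 2977 ± 94.7 ppm in progenitors, a difference of -0.38 that became 0.03 without the GC and length trend. Nid1 then no longer passed either (-0.15, adjusted p = 0.181), and of the list 3 fell and 1 rose, the median turning from -0.21 to 0.05. On low n6/n3 milk, with the trend kept, Hspg2 differed by -0.69 ± 0.08 (limma adjusted p = 0.00928). Of 19 matrix proteases and inhibitors, 6 fell, among them Lox at -0.62, the collagen crosslinking oxidase, and Mmp2 at -0.51, a gelatinase, while Mmp3, stromelysin, and Htra1 rose by 0.75 and 0.27.

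**Figure D2:**
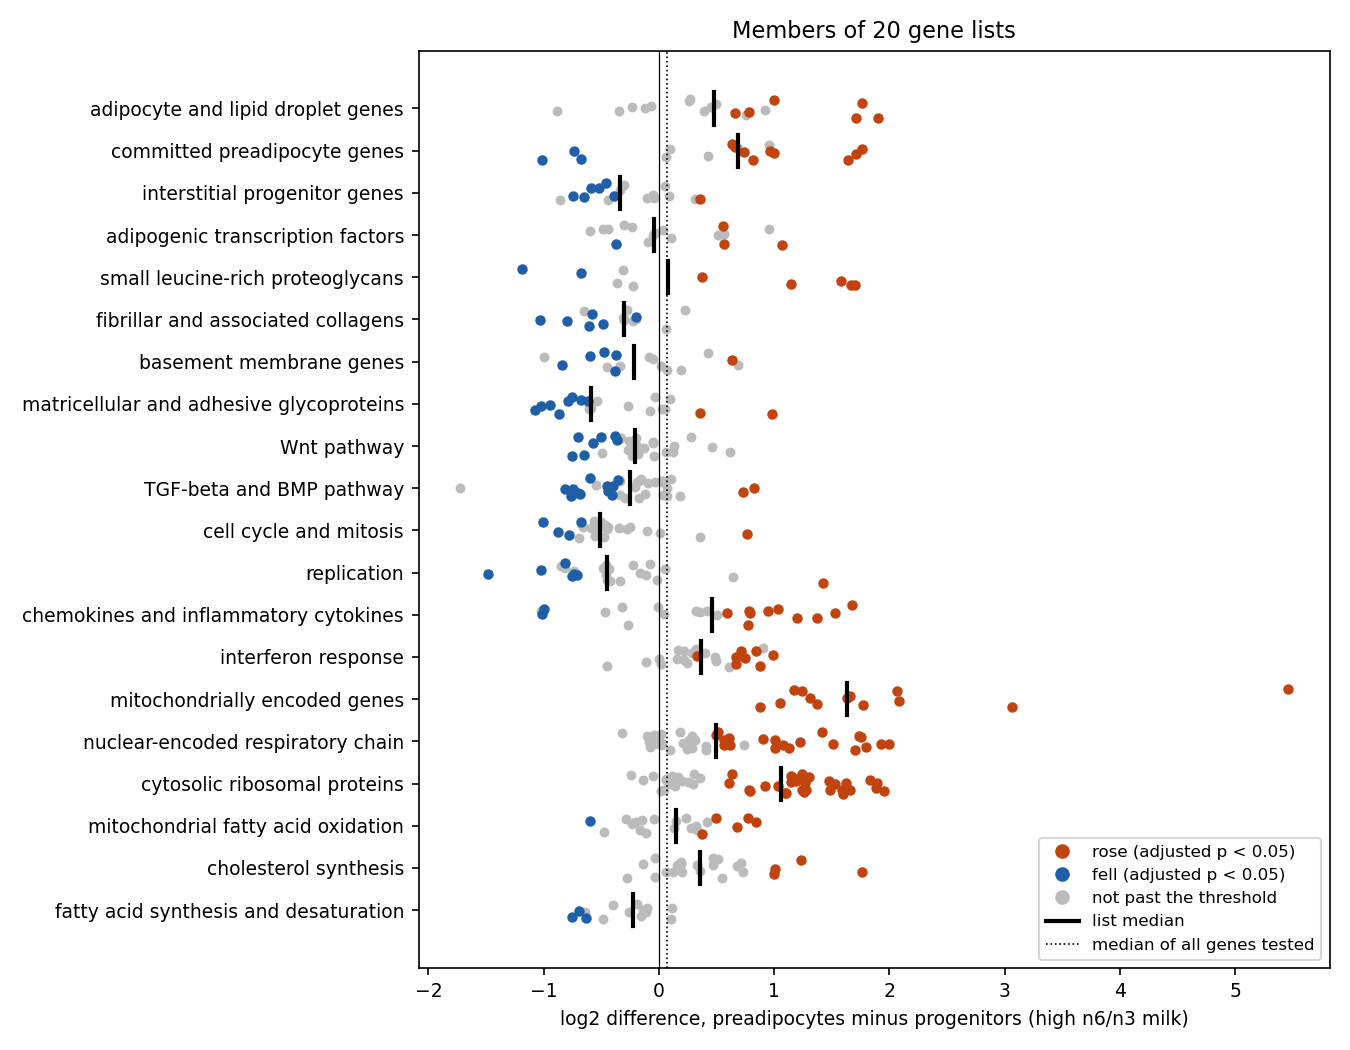
Log2 difference, preadipocytes minus progenitors on high n6/n3 milk (horizontal axis), of the tested members of 20 gene lists; each point is a gene, coloured by its limma adjusted p, the thick line is the list's median and the dotted line the median of all genes. The list medians run from -0.59 for matricellular glycoproteins to 1.63 for mitochondrially encoded genes, and several lists hold risen and fallen members side by side.

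Proliferation genes had lower values in preadipocytes as a list, though few passed singly. Of 26 cell cycle and mitosis genes, 23 had lower values (median -0.51), 4 fell and 1 rose, and in the ranks 10 fell. Over all genes tested, 6.48% fell and 14.3% rose, and in the ranks 9.8% fell. Mki67, the proliferation antigen Ki-67, had 34.3, 35.9 and 36.8 ppm in preadipocytes, against 63.4, 59.9, 50.2 and 75.8 ppm in progenitors, with no overlap (log2 difference -0.78 ± 0.14, limma adjusted p = 0.00547). Foxm1, a transcription factor of the G2/M genes, Plk1, a mitotic kinase, and Top2a, topoisomerase II alpha, fell by 0.88, 1.01 and 0.67. Ccne2, the G1/S cyclin E2, rose by 0.76. Of 24 replication genes, 21 had lower values, 6 fell and 1 rose (median -0.45). Rrm1, a ribonucleotide reductase subunit, and the helicase subunits Mcm4 and Mcm2 differed by -0.71, -0.75 and -1.02. Rfc4, a clamp loader subunit, rose by 1.42. On low n6/n3 milk the list medians were -0.55 for cell cycle and -0.24 for replication, and none and 1 of their genes fell there.

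Of 22 chemokines and inflammatory cytokines, 10 rose in preadipocytes, 2 fell and 10 did not pass (median 0.46). Ccl2 and Ccl7, which attract monocytes, had 387, 359.7 and 317 in preadipocytes, against 88.8, 109, 146 and 159 in progenitors and 213, 229 and 201 in preadipocytes, against 44.4, 61.9, 85.7 and 83.1 in progenitors, in ppm. No preadipocyte library overlapped the progenitor range, and within progenitors libraries 1015 and 1017 were the lowest for both genes. The log2 differences were 1.53 ± 0.20 (limma adjusted p = 0.002) and 1.68 ± 0.21 (adjusted p = 0.002). Il6, interleukin 6, had 285, 270.4 and 192 ppm in preadipocytes, against 63.9, 93.7, 101 and 132 ppm in progenitors (difference 1.37 ± 0.24, adjusted p = 0.00521). Ccl11 (eotaxin), Cxcl1 and Cxcl12 rose by 1.2, 0.95 and 0.78. Il33, an alarmin of stromal progenitors, and Cxcl14 fell, at -1.0 and -1.02. The summed macrophage markers, given above, overlapped between the populations.

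Of 24 interferon response genes, 8 rose and none fell (median 0.37), 22 having higher values. Ifi27, Ifit1 and Ifit3 rose by 0.85, 0.99 and 0.72. The class I histocompatibility genes H2-K1 and H2-D1 both rose by 0.67 and share 22.8% and 26.9% of their 31-base words with transcripts of other genes, so their separate values are uncertain. Among complement genes, C1s1, C1ra, C4b and Cfb rose, while Serping1, the C1 inhibitor, fell. C1s1 averaged 546 ± 42.7 ppm in preadipocytes, against 282 ± 15.8 ppm in progenitors (log2 difference 0.95 ± 0.08, limma adjusted p = 0.00123). C1s1, C1ra and C4b share 47.6%, 59.6% and 48.3% of their words with transcripts of other genes. Among 31 immediate early genes, which respond within minutes and can be switched on while tissue is digested and sorted, 8 rose and 1 fell (median 0.03). The risen ones were Jun, Jund, Junb, Ier2, Gadd45b, Maff and the heat shock genes Hspa1a and Hspa1b, by 0.39 to 0.96, and Nr4a3 fell by 1.05 on the log2 scale. Hspa1a and Hspa1b are near-identical copies, so their separate values are uncertain. The part of handling in the chemokine differences was not tested.

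Mitochondrially encoded and ribosomal protein genes had the highest medians of the 34 pathway lists in the rescaled values. With the GC and length trend removed, the median of mitochondrially encoded genes, 0.69, was below those of ribosomal protein genes (0.91) and committed preadipocyte genes (0.71). All 13 mitochondrially encoded genes rose, with a median of 1.63. The cytochrome b gene mt-Cytb had 13169, 11828 and 8822 ppm in preadipocytes, against 3811, 3419, 3613 and 3232 ppm in progenitors, and mt-Co1, the catalytic subunit of cytochrome oxidase, had 17075, 17187 and 12355 ppm in preadipocytes, against 6709.7, 6546, 6881 and 5898 ppm in progenitors. Preadipocyte library 1019 was again lowest in its group but stayed above all progenitor libraries. The log2 differences were 1.66 ± 0.13 (limma adjusted p = 0.00123) and 1.24 ± 0.12 (adjusted p = 0.00123). The sum of the 13 genes was 5.28 ± 0.826% of all values in preadipocytes, against 1.91 ± 0.142% in progenitors (exact permutation p = 0.0571). Of these genes, 7 have uncertain values of their own: mt-Co2, mt-Co3, mt-Atp6, mt-Nd4l and mt-Nd3 share 98.1% to 100% of their 31-base words with transcripts of other genes, and mt-Co1 and mt-Nd4 share 63.9% and 62.8%. The other 6 share up to 16.8%, and mt-Cytb 6.55%. The cytochrome oxidase gene mt-Co2 had 27.3, 19.1 and 71.2 in preadipocytes, against 0, 2.3, 0 and 0 in progenitors (ppm), with 3 progenitor libraries listed at 0.

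Of 48 cytosolic ribosomal protein genes, 30 rose and none fell (median 1.06), and 30 rose and 1 fell in the ranks. Rpl24 had 21.1, 15.8 and 16.6 ppm in preadipocytes, against 4.06, 3.57, 4.75 and 4.46 ppm in progenitors and Rplp1 had 2378, 2116 and 1379 ppm in preadipocytes, against 764, 665, 699 and 608 ppm in progenitors, with differences of 1.96 ± 0.17 and 1.48 ± 0.18 (limma adjusted p = 0.00123 and 0.00178). Their words were shared with transcripts of other genes to 52.7% and 75.1%. The list made up 2.22 ± 0.471% of values in preadipocytes, against 1.16 ± 0.0861% in progenitors (exact permutation p = 0.0571). Of 41 nuclear-encoded respiratory chain genes, 20 rose and none fell (median 0.50). Cox6c, a cytochrome oxidase subunit, had 152, 112 and 66.6 ppm in preadipocytes, against 25.7, 24.1, 27.2 and 25.9 ppm in progenitors (difference 2.0 ± 0.24, adjusted p = 0.00178), and Uqcrb of complex III and Ndufa4 rose by 1.79 and 1.93.

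Base composition moved with this comparison on high n6/n3 milk. In 5 equal bins of genes by transcript GC content, the median difference was 0.32 in the bin of lowest GC (median 42.3%) and -0.02 to 0.08 in the other bins, while on low n6/n3 milk it was -0.01 to 0.04 in all bins. The lowest bin held 791 of the 2064 genes called higher and 75 of the 937 called lower. By transcript length, the bin medians ran from 0.22 at the shortest to -0.10 at the longest on high n6/n3 milk, and from 0.11 to -0.12 on low n6/n3 milk. Mitochondrially encoded genes had a median GC content of 37.1%, and ribosomal protein genes a median length of 635.75 bases. With a smooth trend over GC content and length removed in each library, 2578 of 14463 genes (17.8%) passed, 1910 higher (13.2%) and 668 lower (4.62%). The medians were then 0.69 for mitochondrially encoded genes (9 rose), 0.91 for ribosomal proteins (30 rose) and 0.42 for the nuclear respiratory chain (20 rose). What lies behind the trend was not tested.

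**Figure D3:**
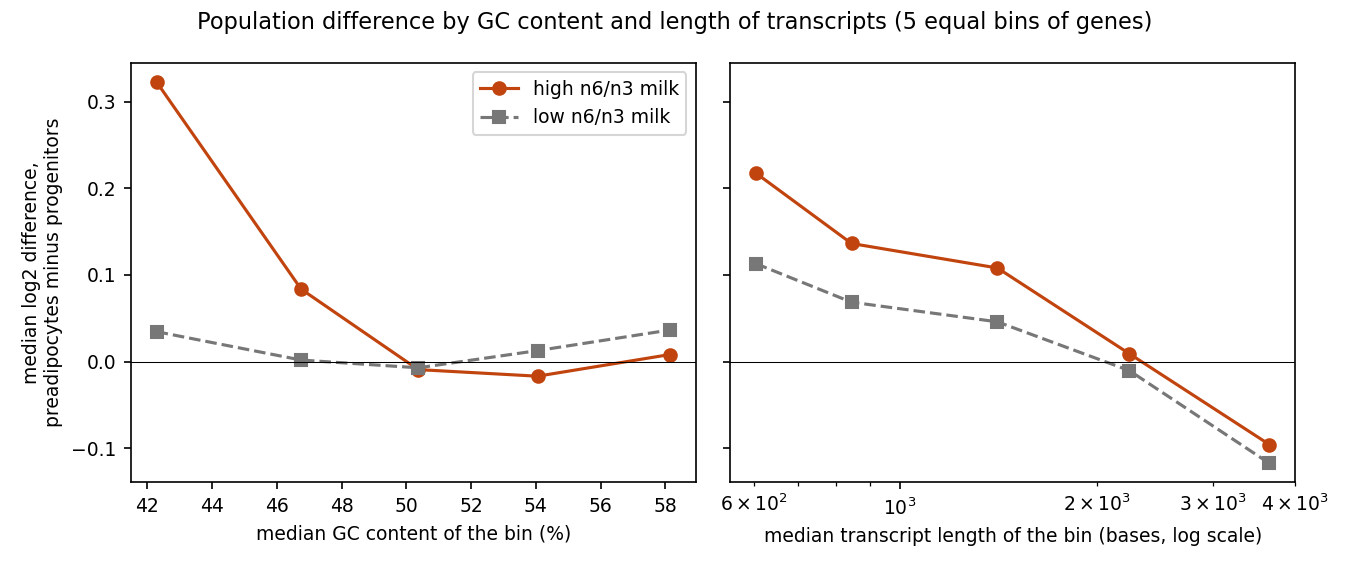
Median log2 difference, preadipocytes minus progenitors (vertical axis), of genes in 5 equal bins by GC content (left, %) and transcript length (right, bases, log scale), on high n6/n3 milk (circles) and low n6/n3 milk (squares). On high n6/n3 milk the bin of lowest GC stands at 0.32, and by length both lines descend, from 0.22 and 0.11 to -0.10 and -0.12.

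**Figure D4:**
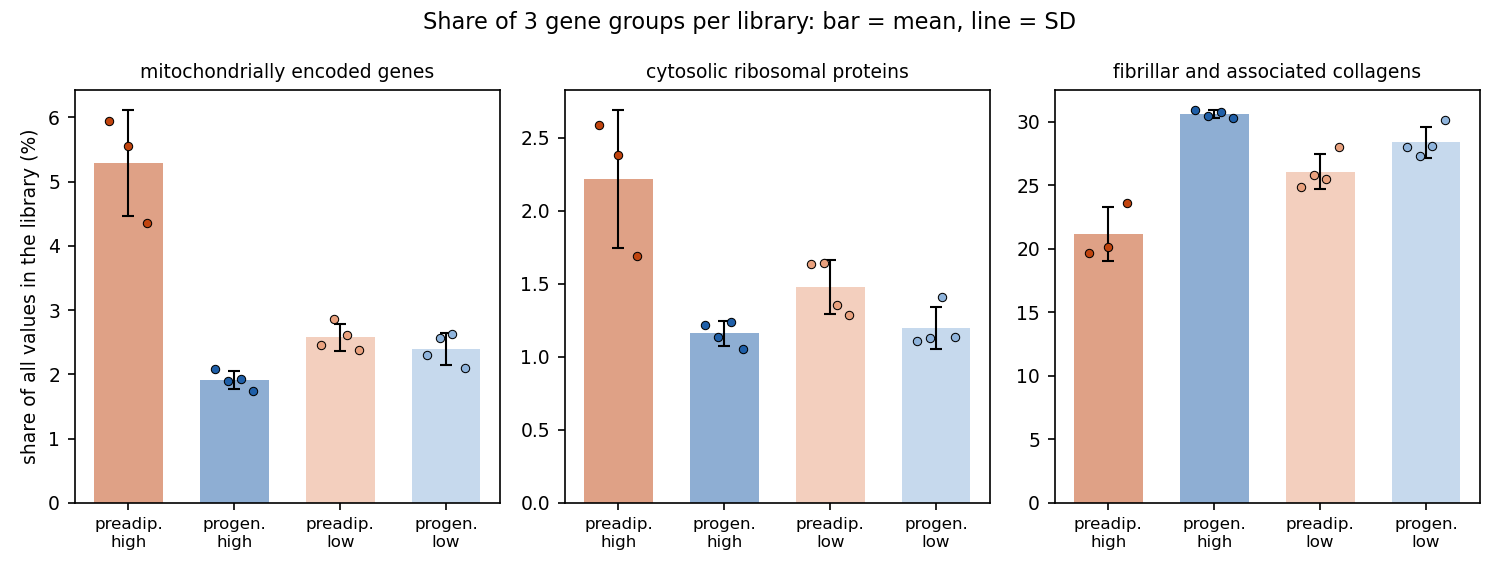
Share of all values of a library (vertical axes, %, from 0) held by mitochondrially encoded genes, cytosolic ribosomal proteins and collagens, in preadipocytes and progenitors on high and then on low n6/n3 milk; points are libraries, bars means, lines SDs. Mitochondrially encoded genes hold 5.28% in preadipocytes on high n6/n3 milk, against 1.91% in progenitors, and 2.58% in preadipocytes on low n6/n3 milk, against 2.40% in progenitors.

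Of 23 cholesterol synthesis genes, 4 rose and none fell (median 0.36), a share near the 14.3% of all genes tested that rose, and 19 had higher values. Idi1, Cyp51, Insig1 and Msmo1 rose. Idi1, isopentenyl diphosphate isomerase, had 27.5, 32.3 and 40.4 ppm in preadipocytes, against 11.3, 6.61, 6.24 and 16.4 ppm in progenitors, and Insig1, a sterol sensor that restrains the pathway, had 52.6, 60.4 and 63 ppm in preadipocytes, against 25.2, 31.1, 21.9 and 41.1 ppm in progenitors. Progenitor library 1019 was the highest of its group in both, and the groups stayed apart (log2 differences 1.76 ± 0.32 and 1.0 ± 0.20, limma adjusted p = 0.00661 and 0.00998). Of 14 fatty acid synthesis and desaturation genes, 3 fell and none rose (median -0.22), all of them desaturases. Scd1, which makes monounsaturated fatty acids, had 81.3, 94.4 and 89.2 ppm in preadipocytes, against 146, 145, 141 and 138 ppm in progenitors (difference -0.69 ± 0.08, adjusted p = 0.00175). Scd2 differed by -0.76, and Fads2, which desaturates dietary n6 and n3 PUFA, had 40.1, 49.4 and 45.6 ppm in preadipocytes, against 73, 77, 65.8 and 63.7 ppm in progenitors (-0.63 ± 0.11, adjusted p = 0.00543). Of 21 genes of mitochondrial fatty acid oxidation, 5 rose (Decr1, Etfb, Hadh, Hadhb and Acads) and Cpt1a fell. With the GC and length trend removed, 6 rose and none fell, so Cpt1a no longer passed as lower. Cpt1a, which admits long-chain fatty acids to mitochondria, averaged 62.9 ± 14 ppm in preadipocytes, against 94.5 ± 13.1 ppm in progenitors (-0.60 ± 0.16, adjusted p = 0.0354), while Decr1, needed for the oxidation of unsaturated fatty acids, averaged 41.1 ± 7.24 ppm in preadipocytes, against 22.5 ± 1.75 ppm in progenitors (0.84 ± 0.14, adjusted p = 0.0042). Of 17 glycolysis genes, Ldha rose and Aldoa and Gpi1 fell, against 14.3% higher and 6.48% lower over all genes tested. Without the GC and length trend, 1 glycolysis gene rose and none fell.

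Prostanoids are made from PUFA, and 3 of 15 genes of this group rose and 2 fell. Hpgd, which degrades prostaglandins, had 135, 126 and 110.0 ppm in preadipocytes, against 67.8, 67.2, 79.9 and 73.1 ppm in progenitors (log2 difference 0.78 ± 0.10, limma adjusted p = 0.00224). Ptges3 and the receptor Ptger3 rose too, and the synthases Ptgs1 and Ptgis fell by 0.48 and 0.41. Of 19 insulin and IGF genes, 4 fell and 1 rose. Igfbp7, an IGF-binding protein, rose to 364, 359.5 and 358 ppm in preadipocytes, against 187, 158, 136 and 192 ppm in progenitors (1.11 ± 0.12, adjusted p = 0.00153), while Igfbp3, another, averaged 326 ± 36 ppm in preadipocytes, against 542 ± 51 ppm in progenitors (-0.74 ± 0.11, adjusted p = 0.0027). The receptor Igf1r, Foxo1 and Grb10 fell, and with the GC and length trend removed 2 of the list fell and 2 rose. Among retinoid genes, Rarres2 (chemerin) rose by 1.0, and Aldh1a3, which makes retinoic acid, fell by 0.52. Rarres2 shares 30.3% of its words with Lrrc61. Of 19 imprinted growth genes, Dcn, Sgce, Meg3 and H19 rose and Peg10 and Grb10 fell, and in the ranks 1 rose and 5 fell. Dlk1, the imprinted preadipocyte factor, had 432, 335 and 334 ppm in preadipocytes, against 548, 351, 223 and 313 ppm in progenitors, a spread within groups that exceeded the difference of 0.10 (adjusted p = 0.832). Of 22 stress response genes, Hsp90b1, Dnajb9, Ddit3 and Atf4 rose, a share near the 14.3% of all genes tested that rose. Of 17 surface genes used in sorting precursors, Ly6a (Sca-1), Itgb1, Cd38 and Cd81 rose and Cd24a fell, Ly6a averaging 812 ± 108 ppm in preadipocytes, against 504 ± 49.4 ppm in progenitors (0.68 ± 0.11, adjusted p = 0.00446). Ly6a shares 31.9% of its words with transcripts of other genes, so its own value is uncertain. Of 10 Areg stromal genes, named after a CD142+ cell that restrains adipogenesis, F3, which encodes CD142, and Cygb rose, and Igfbp3 and Clec11a fell.

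The lowest p of all 14470 genes belonged to Cilp (chr9:65265180-65280605), which encodes a secreted cartilage intermediate layer protein. Cilp had 53.7, 52.2 and 57.5 ppm in preadipocytes, against 248, 235, 219 and 241 ppm in progenitors, 4.33-fold lower in preadipocytes (log2 difference -2.1 ± 0.08, limma adjusted p = 2.98e-05). Within a library it stood at percentiles 83.7, 83.3 and 85.5 in preadipocytes, against 97.2, 97, 96.6 and 97.1 in progenitors. Thbs4, thrombospondin 4, had 8.39, 7.06 and 11.4 ppm in preadipocytes, against 55.7, 35.6, 34.1 and 52.4 ppm in progenitors, and Lgr5, the R-spondin receptor known from stem cells, had 1.78, 2.47 and 2.35 ppm in preadipocytes, against 6.26, 9.36, 13.4 and 8.14 ppm in progenitors. Their differences were -2.24 ± 0.23 and -1.82 ± 0.26 (adjusted p = 0.00129 and 0.00266), and neither overlapped. Slit2, a secreted guidance protein, and Cybrd1, a ferric reductase, fell by 2.07 and 1.52. The other genes among the 12 largest falls at a mean of at least 5 ppm were Iqgap2, Gpd2, Slc7a5, Cd24a, Acta1, Nceh1 and Piezo2. Iqgap2 had 8.11, 0.945 and 0.976 ppm in preadipocytes, against 12.4, 10.3, 12.4 and 13.7 ppm in progenitors, so preadipocyte library 1015 stood apart from the other two, and Slc7a5 had 6.01, 7.03 and 7.41 ppm in preadipocytes, against 34.8, 36.5, 41.8 and 9.54 ppm in progenitors, with progenitor library 1019 near the preadipocytes. Acta1, the skeletal muscle actin, differed by -1.48.

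Among the 12 largest rises, 6 belonged to mitochondrially encoded or respiratory chain genes: mt-Co2, mt-Co3, mt-Nd6, mt-Atp8, Cox7b and Cox6c. With the GC and length trend removed, these differed by 4.78, 2.43, 1.08, 0.62, 1.53 and 1.85, in the same order. Of them, mt-Co2 and mt-Co3 share 100% and 99.9% of their words with other genes, and their own values are uncertain. Mgst1, a microsomal glutathione transferase, had 390.3, 296 and 185 ppm in preadipocytes, against 58.8, 67.7, 66 and 59.9 ppm in progenitors (log2 difference 2.13 ± 0.22, limma adjusted p = 0.00129). Casp4, an inflammatory caspase, had 13.6, 14 and 9.33 ppm in preadipocytes, against 1.33, 2.54, 3.25 and 2.47 ppm in progenitors (2.17 ± 0.28, adjusted p = 0.00195). Both groups were separate in each gene. Lars2, the mitochondrial leucyl-tRNA synthetase, had 1359.7, 2119 and 713 ppm in preadipocytes, against 371, 175, 345 and 161 ppm in progenitors (2.37 ± 0.42, adjusted p = 0.00554), a wide spread within both groups. The tubulin cofactor Tbca rose by 2.0. Pcdhgc4 and Rps27rt, at 3.08 and 2.12, share 37.4% and 92.7% of their words with other genes, and their own values are uncertain.

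The same populations on low n6/n3 milk gave the comparison in libraries that the one on high n6/n3 milk had not used. These libraries stood in the same 2 tables, so a factor per gene within a table would recur there. A shared sign therefore cannot tell a difference between populations from one between tables. There, 163 of 14324 genes (1.14%) passed in limma, 62 higher (0.433%) and 101 lower (0.705%), with 38% of calls higher, or 62.9% without the median ratio step, and 2677 (18.7%) had an unadjusted p under the same threshold, against 5029 (34.8%) on high n6/n3 milk. Of the 2947 genes called on high n6/n3 milk and tested on both, 2616 (88.8%) had the same sign on low n6/n3 milk, against 66.6% of all 14047 genes tested on both. All 129 genes called on both milks had the same direction. Cilp differed there by -1.74 ± 0.14 (adjusted p = 0.00138), with 68.7, 55.1, 83.5 and 69.6 in preadipocytes, against 208, 197, 251 and 269 in progenitors (ppm). Cd24a differed by -1.68 ± 0.11 (adjusted p = 1.99e-04), with 15.4, 18.5, 16.1 and 17 in preadipocytes, against 57.3, 48.2, 54.3 and 59.9 in progenitors. Thbs4, Lgr5, Eln, Fn1, Col1a1, Hspg2, Lox, Lpl, Apoe, Vcam1, C1s1 and Rarres2 also passed on both milks. Adipocyte genes kept their side on low n6/n3 milk with a median of 0.43, and committed preadipocyte genes with 0.59, while the interstitial progenitor median was -0.02. The median standard error of a gene was 0.202 on high and 0.189 on low n6/n3 milk.

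The population difference itself was compared between milks in a fit of all 15 libraries. It differed for 492 of 14403 genes (3.42%), 439 (3.05%) of them with a higher value of the difference on high n6/n3 milk and 53 (0.368%) with a lower one, and 2475 (17.2%) at an unadjusted p. Mitochondrially encoded genes made up 10 of these, ribosomal proteins 19 and respiratory chain genes 10. For mt-Cytb the population difference on high n6/n3 milk exceeded that on low n6/n3 milk by 1.5 ± 0.17 (adjusted p = 0.00109). On low n6/n3 milk it had 4178, 5097, 4301 and 4167 in preadipocytes, against 3578, 4038, 4475 and 3755 in progenitors (ppm), and the groups overlapped. The share of mitochondrially encoded genes there was 2.58 ± 0.211% in preadipocytes, against 2.40 ± 0.245% in progenitors (n = 4 each, exact permutation p = 0.343). Aspn, Ogn, Lum, Postn, Ccl7, Ccl2 and Cd36 also had a larger rise on high n6/n3 milk. Lum differed by 1.15 ± 0.07 on high n6/n3 milk and by 0.37 ± 0.10 on low n6/n3 milk (adjusted p of the difference = 0.00808). Fabp4, Cebpa, Il6, Apoe and Cilp were not shown to differ between milks (adjusted p = 0.0916, 0.099, 0.115, 0.688 and 0.306). Of the 439 genes with a higher difference on high n6/n3 milk, 227 lay in the bin of lowest GC content.

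A few genes turned round between milks. Gpd2, the mitochondrial glycerol-3-phosphate dehydrogenase, had 3.08, 2.97 and 3.96 ppm in preadipocytes, against 12.4, 15.3, 22.7 and 14.9 ppm in progenitors on high n6/n3 milk. On low n6/n3 milk it had 25.3, 29.6, 35.5 and 14 in preadipocytes, against 1.9, 2.98, 33.7 and 13.6 in progenitors (ppm), a wide spread in progenitors. The difference between milks was -3.78 ± 0.91 (limma adjusted p = 0.0349). Donson, a replication fork protein, had 0.607, 0.984 and 0.908 ppm in preadipocytes, against 2.5, 3.03, 3.79 and 3.62 ppm in progenitors on high n6/n3 milk, and 4.25, 4.44, 3.76 and 3.21 in preadipocytes, against 1.94, 1.24, 1.53 and 2.79 in progenitors on low n6/n3 milk (difference between milks -2.41 ± 0.31, adjusted p = 0.0018). Dnah2, an axonemal dynein chain, had 0.631, 0.973 and 0.455 ppm in preadipocytes, against 5.07, 6.92, 4.48 and 4.59 ppm in progenitors on high n6/n3 milk, and 3.63, 1.8, 8.85 and 2.31 in preadipocytes, against 0.528, 1.34, 0.662 and 1.75 in progenitors on low n6/n3 milk (-3.7 ± 0.55, adjusted p = 0.00435). In these 3 genes the groups were apart on high n6/n3 milk, and on low n6/n3 milk none passed singly. Fads2 differed by -0.63 ± 0.11 on high and 0.10 ± 0.09 on low n6/n3 milk (adjusted p of the difference = 0.0136).

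**Figure D5:**
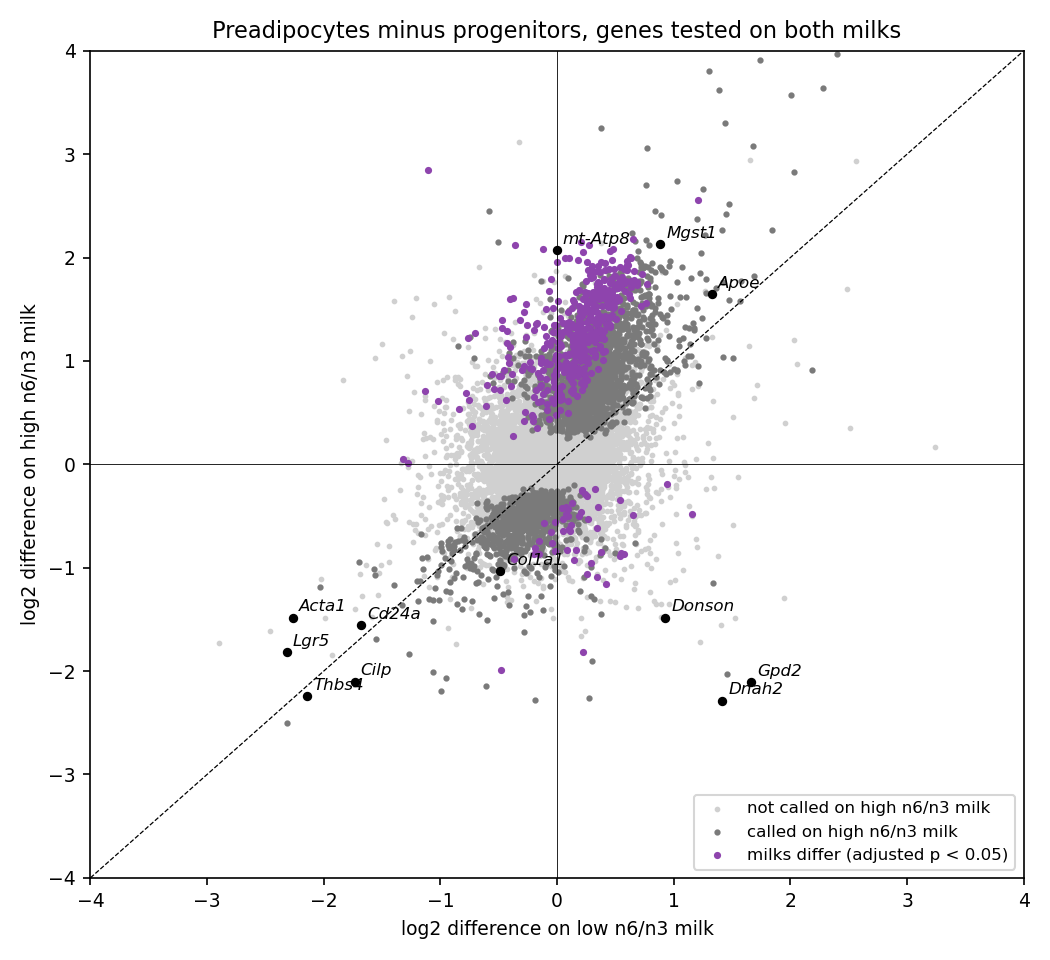
Log2 difference, preadipocytes minus progenitors, on high n6/n3 milk (vertical axis) against that on low n6/n3 milk (horizontal axis) for 14047 genes tested on both; dark grey points passed the threshold on high n6/n3 milk, purple points differed between milks, the dashed line marks equal differences, and 4 genes lie outside the axes. Cd24a, Cilp, Thbs4 and Lgr5 lie low on both milks, Gpd2, Dnah2 and Donson low on high and raised on low n6/n3 milk. The correlation across genes was 0.444 (Spearman) and 0.441 (Pearson), as a description over genes of the same libraries.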

How the data were processed

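RNA of sorted adipocyte precursor cells was sequenced in bulk, per the labels' protocols from libraries of the NuGEN Universal Plus kit. Salmon 0.14.2 and DESeq2 1.28.1 appear in the submitters' processing notes, beside mm10 and GRCm38. For the annotation and the strand setting nothing is given in the sources used here. The deposited values are log2-like results of a variance stabilizing transformation that the authors fitted to each table alone, with floors of 7.12 in preadipocytes (23118 genes) and 7.70 in progenitors (23347 genes). The authors' table of log2 fold changes between milks, with their p-values, served only to check the inversion below: over 11076 and 11164 genes the median absolute difference was 0.00304 and 0.000751. For preadipocytes on low n6/n3 milk the source name says high, and the characteristics were used.

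The transformation was inverted in closed form. Any factor per gene that the authors applied within a table stays in the values. Genes were joined by Ensembl ID, 21792 in both tables (1326 and 1555 in 1 table alone), set to parts in 1000000 (ppm) and scaled to a median ratio over genes with a mean of at least 10. Whole reads were recovered for only 42.0% to 85.2% of low values in the 7 libraries (tolerance 0.02), so no count test was run. Tests used limma 3.58.1 in R 4.3.3 on log2(value + 0.5), which understates changes of low genes, with eBayes trend and robust settings, adjusted by Benjamini-Hochberg at 0.05 over all genes with a mean of at least 0.5. Shares were compared by exact two-sided permutation tests. Names, coordinates, GC content and length came from GENCODE M21 on GRCm38, where 21771 genes matched, and the trend was fitted with mgcv 1.9.3. Shared words are 31-base stretches of a gene's transcripts that occur in other genes' transcripts. Among other risen genes named above, Jund, Etfb, Uqcrb, Idi1 and Tbca share 50.1%, 49.9%, 34.8%, 27.1% and 25.3% of their words. Their own values are uncertain too.

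The groups compared and the 34 pathway and 14 marker lists were chosen with earlier results of these data known. Genes named singly were, in each direction, the 12 largest differences past the threshold without overlap and with a mean of at least 5, up to 4 members per pathway list by smallest p, up to 3 per marker list by level, up to 5 per direction for the difference between milks, and 13 further genes. A few items are not reported here. Other list members are named where a list's count is spelled out. The labels do not say what a library number shared by the populations means, and the main fits did not pair samples by it. Alternatives covered scaling, pseudocount, filters, the trend, a replicate block, weights and leaving out each library. The scripts were tested on simulated data.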

Additional observations from a re-analysis of the deposited data

Results flagged for a closer look

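Among the 197 named genes, 14 had 1 progenitor library on high n6/n3 milk that stood apart from the other 3 in rescaled values (ppm). The gap was judged against the spread of the group, so some of these values differ little in level. Chance alone marks about 1 in 20 groups this way, and groups of 3, such as the preadipocytes, were not examined. Library 1015 stood low for Fn1 (18760.0, the others 23435 to 23968) and high for Etfb (32.8, the others 30.2 to 30.6), Cd4 (1.54, the others 0.0192 to 0.113), S100b (7.65, the others 5.89 to 6.17) and Aqp7 (3.66, the others 1.24 to 1.47). Library 1017 stood high for the haemoglobin genes Hbb-bs (338, the others 65.3 to 110.0) and Hba-a2 (312, the others 62.1 to 93.1), and it alone had a value above 0 for mt-Co2 (2.30). Library 1018 stood high for Pcdhgc4 (25.2, the others 4.27 to 6.65) and Plin1 (3.08, the others 0.844 to 1.03) and low for Notch3 (31.6, the others 47.2 to 48.8). Library 1019 stood high for Hsp90b1 (627, the others 554 to 562) and Trac (1.30, the others 0.709 to 0.749) and low for Tgfbi (391, the others 480.0 to 498).

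For 35 of the 197 named genes the population difference, preadipocytes minus progenitors, itself differed between the milks at a limma adjusted p under the threshold, in the fit of all 15 libraries. Among all genes tested the share was 3.42%. Up to 5 genes in each direction had been named for this very difference, so the count partly follows from the choice. The values below are the difference on high n6/n3 milk minus that on low n6/n3 milk, on the log2 scale. It was positive for the mitochondrially encoded genes mt-Nd6 (2.20), mt-Atp8 (2.07), mt-Nd4l (1.6), mt-Nd4 (1.06), mt-Cytb (1.5), mt-Atp6 (1.30) and mt-Nd5 (1.26), of which mt-Nd4l, mt-Nd4 and mt-Atp6 share most of their words with other genes. It was positive for the respiratory chain genes Cox7b (1.61), Cox6c (1.36), Uqcrb (1.39), Cox7a2 (1.17) and Ndufv2 (0.97) and the ribosomal genes Rpl24 (1.70), Rplp1 (1.28) and Rps20 (0.80). Matrix genes with a positive value were Lum (0.78), Ogn (1.36), Aspn (1.30) and Postn (0.71). The other positive ones were Mgst1 (1.25), Tbca (1.38), Cd36 (1.08), Ccl7 (1.33), Ccl2 (1.04), Tceal9 (1.19) and Rsrc2 (1.15). It was negative for Gpd2 (-3.78), Stat5b (-0.50), Col1a1 (-0.55), Lamb2 (-0.82), Donson (-2.41), Fads2 (-0.73), Dnah2 (-3.70), Rgl1 (-0.92) and Cacfd1 (-0.79). The bins of GC content, over which the median population difference moved on high and not on low n6/n3 milk, are given with the comparison above.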

How the results depend on the processing

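On high n6/n3 milk, 3001 genes passed, 2578 to 4204 under other scalings, pseudocounts, filters, library weights, the ranks or the removal of the GC and length trend, and 1877 to 3478 with 1 library left out. The counts fell by more than 1.5 times without preadipocyte library 1017 (1877), without progenitor library 1017 (1920) and without preadipocyte library 1015 (1991). A replicate block left 1903 genes, and the block with the GC and length trend removed left 1488. On low n6/n3 milk, 163 genes passed, 111 to 220 under the other settings and 19 with a replicate block. The difference between milks gave 492 genes, 416 to 622 under scalings, ranks, pseudocount and filter, 295 with the GC and length trend removed and 126 with a replicate block. The cause was not tested. The block uses library numbers that populations share, with 1 progenitor library without a partner. Deviations of same-numbered libraries from their group means correlated at 0.089, -0.037 and -0.010 on high n6/n3 milk and at -0.056 to 0.078 on low n6/n3 milk. With so few libraries, these values cannot tell whether a shared number marks the same animals. The main fits did not take the numbers as pairs.

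Of 192 named genes tested, 153 passed, 122 of these without each library in turn and 93 under every alternative run. Many were named because they passed or had a small p in this same fit. These counts therefore say nothing about genes in general, of which 20.7% passed. Stat5b reversed to 0.058 with the GC and length trend removed and to 0.066 with the block as well, and Hspg2 to 0.033 and 0.030. The 3 shares kept their direction over all genes of a table. With 3 against 4 libraries no share can fall below an exact p of 0.0571, and with 4 against 4 none below 0.0286. The shallow preadipocyte libraries 1015 (13.8 M reads) and 1019 (22.8 M reads) limit genes of low level, and a difference that did not pass was not detectable at this depth and number, not shown to be absent.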
